A study of Mus musculus with 32 samples.

Results

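The 9 genes described here, Klf2, Klf4, Klf5, Esrrb, Zfp42, Tfcp2l1, Prdm14, Nr0b1 and Tcl1, are a named set of naive pluripotency genes, chosen by symbol from the deposited expression table. They are 9 of its 55492 rows, and all 9 were among the 16276 genes whose level was high enough to test. In the study, polyadenylated RNA was sequenced from mouse stem cells (day 0) and from the retinal organoids they formed (days 2, 4 and 6), with 2 libraries in each of 16 groups. WT is Rx:GFP, the parent stem cell line. KO stands for the libraries labelled Mettl3 KO, which lack the methyltransferase METTL3 by label, the catalytic subunit of the complex that places N6-methyladenosine (m6A) on messenger RNA. The groups called no Dex and Dex are both the KO line with overexpressed WT METTL3-GRBD, a METTL3 fusion. The first had no dexamethasone, and the second had this synthetic glucocorticoid at 10 µM. The design text places the fusion protein in the cytosol without Dex and in the nucleus with it. Organoid cultures of all 4 kinds, days 2 to 6, carried AGN at 0.1 µM, and no AGN is given for day 0. Dex treatment is described for 2, 4 and 6 days, whereas the day 0 libraries of that group are also labelled as treated. Dex without the fusion was not among the groups, so that an effect of Dex itself and an effect of the moved fusion cannot be told apart. The labels do not say whether a line is a single clone, nor whether the duplicates were separate cultures, so the p-values measure only the spread between these libraries.

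Naive pluripotency is the state of the preimplantation epiblast and of mouse stem cells kept with leukaemia inhibitory factor (LIF), and it is held by a network of transcription factors that maintain each other's expression. Klf2, Klf4 and Klf5 are zinc finger factors of the Krüppel-like family, of which Klf4 is a target of the LIF and STAT3 pathway. Esrrb is an orphan nuclear receptor, and Tfcp2l1 is a factor of the grainyhead family. Zfp42 (Rex1) is a zinc finger gene used as a reporter of the naive state. Prdm14 restrains fibroblast growth factor signalling and DNA methylation. Nr0b1 (Dax1) is an unusual nuclear receptor that acts as a cofactor, and Tcl1, a coactivator of the kinase AKT, is the member of the set that is not a transcription factor. These genes are shut down when cells leave the naive state, as on the way to neural lineages.

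RefSeq promoter windows (GRCm38.p6) were matched by symbol for 7 of the 9 genes, all but Klf5 and Prdm14. Starts are those of RefSeq. For Zfp42, Klf2 and Klf4 they differ from the GENCODE gene starts given below, and the Klf2 window ends within the GENCODE gene. The 250 bases before the start of Zfp42, Klf2 and Klf4 are shown because Zfp42 did not share the day 2 difference between KO and WT that Klf2 and Klf4 had, and because its window held other motifs than the GC box of those 2 genes. Each is written 5′ to 3′ on the strand of its gene, with capitals for the matches: ATTTGCAT (the octamer, bound by Oct4) and GGGTGTGG (a KLF motif, here as its reverse complement) in Zfp42, and GGGGCGGGG (the GC box, either strand) in Klf2 and Klf4.
Zfp42, chr8:43307010-43307259, minus strand: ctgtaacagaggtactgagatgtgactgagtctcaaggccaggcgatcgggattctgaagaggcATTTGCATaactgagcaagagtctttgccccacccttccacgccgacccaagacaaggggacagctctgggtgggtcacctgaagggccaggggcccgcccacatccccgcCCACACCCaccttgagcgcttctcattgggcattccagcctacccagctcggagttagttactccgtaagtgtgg
Klf2, chr8:72318812-72319061, plus strand: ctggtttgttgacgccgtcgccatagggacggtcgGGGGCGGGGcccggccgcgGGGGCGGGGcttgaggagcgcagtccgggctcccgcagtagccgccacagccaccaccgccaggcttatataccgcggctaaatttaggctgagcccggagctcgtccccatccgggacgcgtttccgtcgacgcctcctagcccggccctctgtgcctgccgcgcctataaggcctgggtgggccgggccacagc
Klf4, chr4:55532476-55532725, minus strand: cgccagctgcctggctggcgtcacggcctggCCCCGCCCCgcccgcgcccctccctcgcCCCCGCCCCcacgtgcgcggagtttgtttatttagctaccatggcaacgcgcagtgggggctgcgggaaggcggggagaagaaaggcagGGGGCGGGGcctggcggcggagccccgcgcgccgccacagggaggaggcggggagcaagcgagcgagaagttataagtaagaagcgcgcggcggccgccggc

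Base composition and motifs differed between these windows. GC content was 58.4% in Zfp42, 71.2% in Klf2 and 74.0% in Klf4, against a median of 52.4% over 32851 promoters. The octamer, at -186 to -179 of the Zfp42 start, occurred in 1.74% of all windows of 300 bases, the KLF motif, at -75 to -68 of Zfp42, in 3.56%, and the GC box in 11.4%. Among the other members the GC box had 1 match, in Tcl1. Unlike Klf2 and Klf4, Tcl1 was lower in KO than in WT at day 2 (log2 difference -1.46). Prdm14, which was higher in KO at that day, had no window. Esrrb and Tfcp2l1, like Zfp42 not called at that day, had no match of any motif searched here. The estrogen related receptor motif TCAAGGTCA, the STAT motif TTCCNGGAA and the Tfcp2l1 motif, a spaced pair of CCAG boxes, searched on both strands, had no match in the members' windows and were found in 0.423%, 1.15% and 3.44% of all windows. No binding was measured, and a match is only a description of these letters.

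The table gives FPKM, fragments per kilobase of transcript scaled to a library total, and how that total was set is not given in the sources used here. Taken as each library's own mapped total, it was an estimated 28.8 M to 55.4 M fragments (M for mega, median 37.7 M). Duplicates correlated across genes at r between 0.9922 and 0.9955, and 3 fragments on a transcript of 2 kb corresponded to 0.032 to 0.061 FPKM. A gene was called where limma's test on log2(FPKM + 1) gave a Benjamini-Hochberg adjusted p under 0.05 over all 16276 genes, and log2 differences are on that scale, which understates the change of low genes. Mettl3 itself did not fall below WT in KO, and at day 0 it was higher (log2 difference 0.30, limma adjusted p = 0.000417). Its level was 33.2 to 36.8 FPKM at day 0 in WT and 42.9 to 43.8 FPKM in KO, and over days 2 to 6 it was 32.5 to 41.2 FPKM in WT and 34.9 to 40.8 FPKM in KO, so that the knockout label cannot be checked on this gene total. Both fusion groups were higher, at 44.5 to 75.1 FPKM over all days. Day 0 libraries had the levels of stem cells, with Pou5f1 at 868 to 1079 FPKM, Nanog at 173 to 193 FPKM and Sox2 at 200.5 to 262 FPKM. These are bulk samples, in which fewer cells of a type and less RNA per cell cannot be told apart.

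In WT stem cells the members spanned a wide range of levels. Zfp42 (chr8:43295063-43306980, minus strand, GRCm38) was highest, at 408 and 461 FPKM in the 2 libraries, above 98.2% of tested genes. Esrrb (chr12:86361117-86521628, plus) followed at 183 and 182 FPKM and Klf2 (chr8:72319033-72321656, plus) at 174 and 181 FPKM, and the means of these neighbours differed by less than the gap between the 2 Klf2 libraries. Next came Klf5 (chr14:99298691-99315036, plus) at 103 and 99.2 FPKM. Nr0b1 (chrX:86191764-86195947, plus), with 58.5 and 62.2 FPKM, and Klf4 (chr4:55527143-55532466, minus), with 57.4 and 57.2 FPKM, came next, and their means differed by less than the gap between the 2 Nr0b1 libraries. Tcl1 (chr12:105216750-105222793, minus) had 48.2 and 45.9 FPKM. Tfcp2l1 (chr1:118627945-118685168, plus) had 18.3 and 17.2 FPKM, and Prdm14 (chr1:13113457-13127163, minus), the lowest, had 7.70 and 6.19 FPKM, above 50.3% of tested genes. FPKM is per length, so these levels can be set beside each other. Tfcp2l1 shares exon sequence with Gm23497, which is listed at 0 in the table.

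All 9 genes fell between day 0 and day 2 in WT, where 63.4% of tested genes were called, 36.0% of them downward out of all tested. The median log2 change of the 9 was -2.35, against -0.03 over all tested genes. Klf4 fell most, from 57.4 and 57.2 FPKM to 2.49 and 2.27 FPKM (log2 change -4.11, SE 0.07, limma adjusted p = 2.42e-19), so that a mean of 4.16% of its day 0 level was left. Prdm14 followed, at 0.40 and 0.39 FPKM on day 2, with 5.69% left, and Tfcp2l1, at 1.37 and 1.40 FPKM, with 7.80% left. Both were thus near or below 1 FPKM within 2 days. At the other end, Klf2 still had 57.2 and 56.7 FPKM (32% left), and Nr0b1 had 22.0 and 20.7 FPKM (35.4% left). Esrrb, Klf5, Zfp42 and Tcl1 lay between, with 12.9%, 18.8%, 23.9% and 27.4% left.

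The later steps in WT were smaller and less uniform. Between days 2 and 4, 7 of 9 fell (59.9% of tested genes called), the exceptions being Klf4 (log2 change 0.08, SE 0.07, limma adjusted p = 0.354) and Prdm14 (-0.19, SE 0.08, limma adjusted p = 0.0624), which were already low. Zfp42 fell to 17.1 and 16.5 FPKM in that step (log2 change -2.55, SE 0.05), and Nr0b1 to 3.12 and 3.29 FPKM. Between days 4 and 6, 5 of 9 were called (66.7% of tested genes), 4 of them lower. Klf4 rose in that step, from 2.33 and 2.85 FPKM to 3.92 and 4.01 FPKM (log2 change 0.47, SE 0.07, limma adjusted p = 1.52e-05). The 2 groups did not overlap, and Klf4 rose in the same step in the other 3 lines as well, by 0.20 in KO, 0.28 in no Dex and 0.41 in Dex. The call in KO was lost without the second day 4 library (0.16) or the first day 6 library (0.13). Esrrb, with 6.57 and 6.19 FPKM at day 4 and 6.08 and 5.66 FPKM at day 6, was called lower (log2 change -0.10), a call lost without the first day 4 library (-0.07) or the second day 6 library (-0.06).

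**Figure D1:**
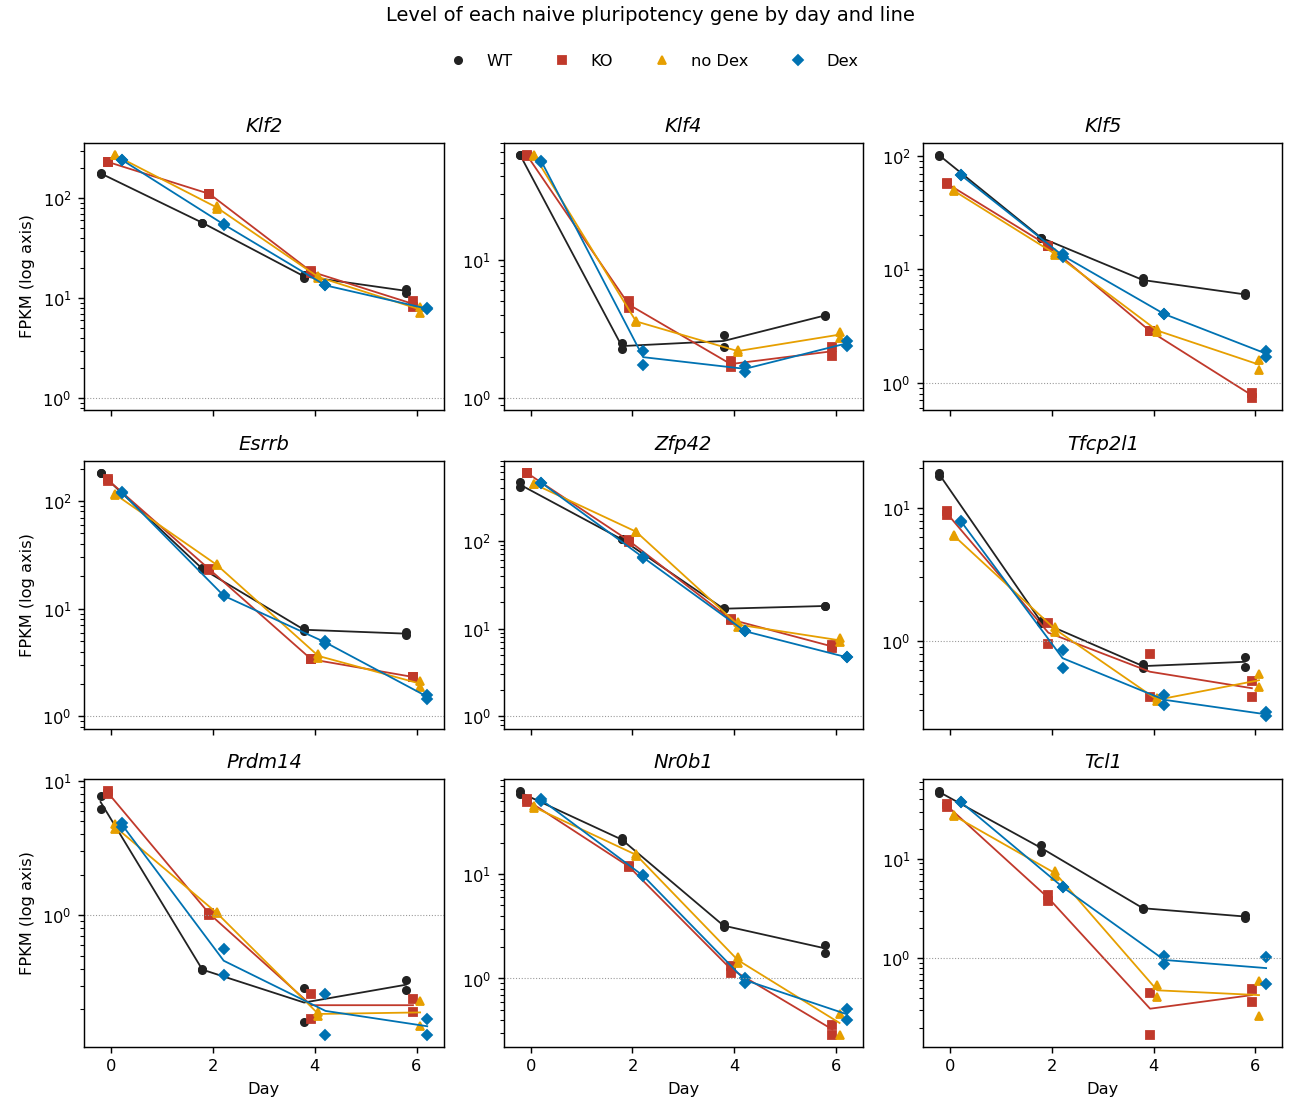
Level of each of the 9 genes in every library, in FPKM on a log axis, against day of culture. Each point is 1 library and lines join group means. The dotted line marks 1 FPKM. All 9 genes were lower at day 6 than at day 0 in each line, Klf4 was down to 1.75 to 5.00 FPKM by day 2, and at day 6 the WT points lie above those of the other 3 lines for every gene.

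All 9 genes fell from day 0 to day 6 in each of the 4 lines, where 78.1% (WT), 80.4% (KO), 81.9% (no Dex) and 80.4% (Dex) of tested genes were called. Their median log2 change was -3.80 in WT, -4.64 in KO, -4.37 in no Dex and -4.62 in Dex, against 0.09, 0.09, 0.17 and 0.14 over all tested genes. In this and other time comparisons rescaling by median ratios moved the median of all genes, by the most in no Dex (0.17 to -0.03), which is small beside these changes. The day 2 step also took all 9 genes down in KO (65.6% of tested genes called), no Dex (67.9%) and Dex (60.6%). All 9 calls in each line for both steps held under every alternative and with each library left out.

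The share of the day 0 level that was left showed how the lines differed. At day 2, Klf4 had the lowest share in each line, at 4.16% in WT, 8.38% in KO, 6.35% in no Dex and 3.86% in Dex. The highest share was that of Nr0b1 in WT (35.4%) and no Dex (35.0%), and that of Klf2 in KO (47.9%) and Dex (22.6%). The median share over the 9 genes at day 2 was 18.8% in WT, 14.7% in KO, 26.1% in no Dex and 13.9% in Dex. By day 6 the median had come to 4.39% in WT, 1.48% in KO, 2.85% in no Dex and 2.66% in Dex. Nr0b1 had the lowest mean share at day 6 in all 4 lines, 3.21% in WT, 0.641% in KO, 0.860% in no Dex and 0.886% in Dex. In WT its libraries (3.50% and 2.93%) overlapped those of Esrrb (3.34% and 3.11%). In no Dex its libraries (0.665% and 1.06%) overlapped those of Tcl1 (2.16% and 0.952%). The highest mean share at day 6 was that of Klf4 in WT (6.93%) and Dex (4.85%) and of Tfcp2l1 in KO (4.81%) and no Dex (8.16%). In WT the Klf4 libraries (6.85% and 7.0%) overlapped those of Klf2 (6.97% and 6.38%). In KO the Tfcp2l1 libraries (4.16% and 5.47%) met those of Klf4 (4.16% and 3.57%). Tfcp2l1 started from a lower day 0 level in KO, no Dex and Dex than in WT, and in Dex its share was 3.53%.

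**Figure D2:**
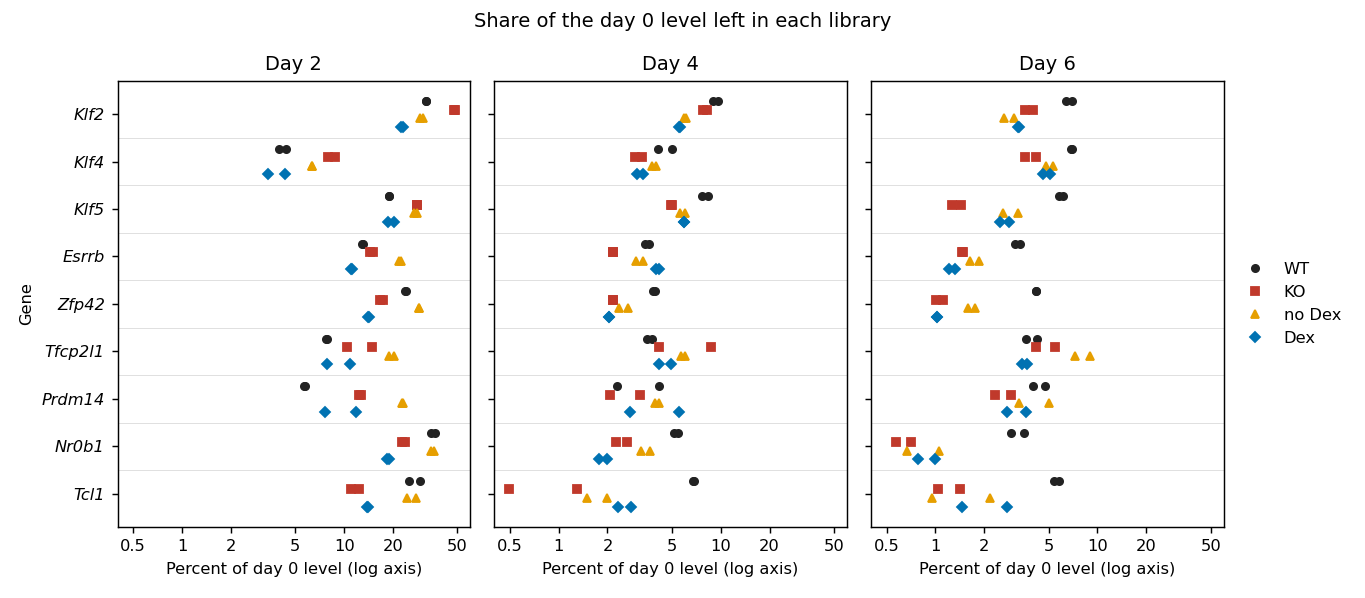
Percent of the day 0 level left in each library at days 2, 4 and 6, on a log axis, with each line's mean day 0 level as 100. Each point is 1 library. At day 2 the KO points for Klf2 lie near 50 and those for Tcl1 near 12, and at day 6 the WT points of Zfp42, Nr0b1, Tcl1 and Klf5 stand to the right of the other lines.

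The libraries labelled KO were first set beside WT at each day, with the label not checked by the level of Mettl3. In stem cells (day 0), KO differed in 8 of 9 genes, with 3 above WT and 5 below, where 48.2% of tested genes were called (18.4% higher, 29.8% lower). Klf5 was 102.5 and 99.2 FPKM in WT and 56.9 and 57.7 FPKM in KO (log2 difference -0.80, SE 0.05, limma adjusted p = 4.48e-10). Tfcp2l1 was 18.3 and 17.2 FPKM in WT and 8.87 and 9.41 FPKM in KO (-0.89, SE 0.10, limma adjusted p = 4.69e-07). Zfp42, in contrast, was 408 and 461 FPKM in WT and 584 and 591 FPKM in KO (0.44, SE 0.05, limma adjusted p = 1.64e-06). The KO stem cells thus held less of Klf5 and Tfcp2l1 and more of Zfp42, with no overlap of libraries. Klf2 was also higher (0.38, SE 0.05) and Esrrb lower (-0.21, SE 0.04), and Klf4 had the same level in both (log2 difference -0.02, SE 0.07, limma adjusted p = 0.886). These 5 calls held under every alternative and with each library left out. The calls of Prdm14 (0.21), Nr0b1 (-0.25) and Tcl1 (-0.43) did not hold. With a pseudocount of 0.1 their adjusted p was 0.425, 0.136 and 0.229. Prdm14 was also lost without the second WT library (0.07) or without the first (0.18) or second (0.24) KO library, Nr0b1 without the second library of WT or of KO (-0.20 each), and Tcl1 without the first KO library (-0.37).

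At day 2 the 9 genes split by direction. The test called 6, with Klf2, Klf4 and Prdm14 higher in KO and Klf5, Nr0b1 and Tcl1 lower, where 58.9% of tested genes were called (37.5% higher, 21.3% lower). Klf2 was 57.2 and 56.7 FPKM in WT and 112 and 109.7 FPKM in KO (log2 difference 0.95, SE 0.05, limma adjusted p = 2.22e-11). Klf4 was 2.49 and 2.27 FPKM in WT and 5.00 and 4.48 FPKM in KO (0.76, SE 0.07, limma adjusted p = 4.31e-08). Prdm14 was 0.40 and 0.39 FPKM in WT and 1.04 and 1.01 FPKM in KO (0.54, SE 0.08, limma adjusted p = 2.04e-05). The KO means of these 3 genes were 1.94, 1.99 and 2.59 times those of WT, without overlap, and Prdm14 moved to 1.18 on the log2 scale with a pseudocount of 0.1. Tcl1, the AKT coactivator, went the other way, with 13.9 and 11.9 FPKM in WT and 4.28 and 3.80 FPKM in KO (-1.46, SE 0.12, limma adjusted p = 5.87e-09). Nr0b1 had 22.0 and 20.7 FPKM in WT and 12.0 and 11.6 FPKM in KO (-0.80, SE 0.07, limma adjusted p = 7.47e-09). Klf5 was slightly lower in KO (-0.22, SE 0.05). These 6 calls held under every alternative and with each library left out. Esrrb (-0.02), Zfp42 (-0.05) and Tfcp2l1 (-0.16) were not called, and rescaling by median ratios took Esrrb (-0.13) and Zfp42 (-0.17) past the threshold, for 3 higher and 5 lower.

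By day 4 the balance had turned, with 7 genes called, 1 higher and 6 lower (60.5% of tested genes, 36.5% higher and 24.0% lower), and at day 6 there were 8 called, all lower (65.1% of tested genes called, 30.9% higher and 34.2% lower). The median log2 difference of the 9 was -0.38 at day 4 and -1.05 at day 6, against 0.06 and -0.03 over all tested genes. At day 4 Klf5 had 7.74 and 8.35 FPKM in WT and 2.84 and 2.86 FPKM in KO (log2 difference -1.23, SE 0.05), and Tcl1 had 3.22 and 3.15 FPKM in WT and 0.17 and 0.45 FPKM in KO (-1.68, SE 0.12). These 2 were the genes farthest below WT, again without overlap. Klf5 at day 6 had 5.88 and 6.15 FPKM in WT and 0.73 and 0.82 FPKM in KO (log2 difference -1.98, SE 0.05, limma adjusted p = 8.60e-17), a mean 7.76 times lower. Zfp42 had 18.1 FPKM in each WT library and 6.55 and 5.94 FPKM in KO (-1.40, SE 0.05, limma adjusted p = 2.21e-14). Esrrb had 6.08 and 5.66 FPKM in WT and 2.33 and 2.32 FPKM in KO (-1.05, SE 0.04, limma adjusted p = 7.11e-14). Thus genes not called against WT at day 2 in the main fit (Esrrb, Zfp42) or above it (Klf2, Klf4) were below WT at day 6. Klf2 at day 6 had 12.4 and 11.3 FPKM in WT and 8.25 and 9.32 FPKM in KO (-0.40, SE 0.05), and Klf4 had 3.92 and 4.01 FPKM in WT and 2.35 and 2.02 FPKM in KO (-0.64, SE 0.07). Nr0b1 fell to 0.36 and 0.29 FPKM in KO, with 2.11 and 1.77 FPKM in WT (-1.15, SE 0.07), and Tcl1 to 0.36 and 0.49 FPKM, with 2.53 and 2.73 FPKM in WT (-1.35, SE 0.12). For these low genes the pseudocount matters, and with 0.1 the differences were -2.26 for Nr0b1 and -2.39 for Tcl1. Prdm14, at 0.33 and 0.28 FPKM in WT and 0.19 and 0.24 FPKM in KO, was not called (limma adjusted p = 0.305). The call of Tfcp2l1 at day 6 (-0.24, limma adjusted p = 0.0429) was lost without the first (-0.28) or second (-0.19) WT library or the first KO library (-0.18), and that of Klf2 at day 4 (0.15, limma adjusted p = 0.0230) without the second WT (0.10) or second KO library (0.12). The other 6 calls at day 4 and 7 at day 6 held under every alternative and with each library left out.

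The change from day 0 was also tested for a difference between KO and WT. It was called in all 9 genes at day 2 (6 higher, 3 lower in KO relative to WT, 48.9% of tested genes called), in 8 at day 4 (1 higher, 7 lower, 57.4%) and in 9 at day 6 (1 higher, 8 lower, 56.9%). For Klf2 the difference in change was 0.57 (SE 0.08) at day 2 and -0.77 (SE 0.08) at day 6, and for Klf4 it was 0.78 (SE 0.11) at day 2 and -0.62 (SE 0.11) at day 6, so that both genes had fallen less by day 2 and further by day 6 in KO. Zfp42 fell further in KO at each day, by a difference of -0.49 at day 2, -0.82 at day 4 and -1.84 at day 6 (SE 0.08 each). Tfcp2l1 was the member whose later change was called smaller in KO, by 0.82 at day 4 and 0.65 at day 6 (SE 0.14 each), and with a pseudocount of 0.1 the day 6 value was 0.39 (limma adjusted p = 0.293). The call of Esrrb at day 2 (0.19) was lost with rescaling (0.05) or without the first KO library of day 0 or day 2 (0.17 each), and that of Tfcp2l1 at day 2 (0.73) with a pseudocount of 0.1 (0.68). That of Klf4 at day 4 (-0.36) was lost without the second WT library of day 4 (-0.25), and that of Klf2 at day 4 (-0.23) without the first WT library of day 0 (-0.20) or of day 4 (-0.18) or the first KO library of day 4 (-0.20). Those of Prdm14 at days 2 (0.33) and 6 (-0.31) were lost with no filter on low values and with several single libraries left out, with values down to 0.19 (without the first WT library of day 0) and -0.18 (without the second).

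**Figure D3:**
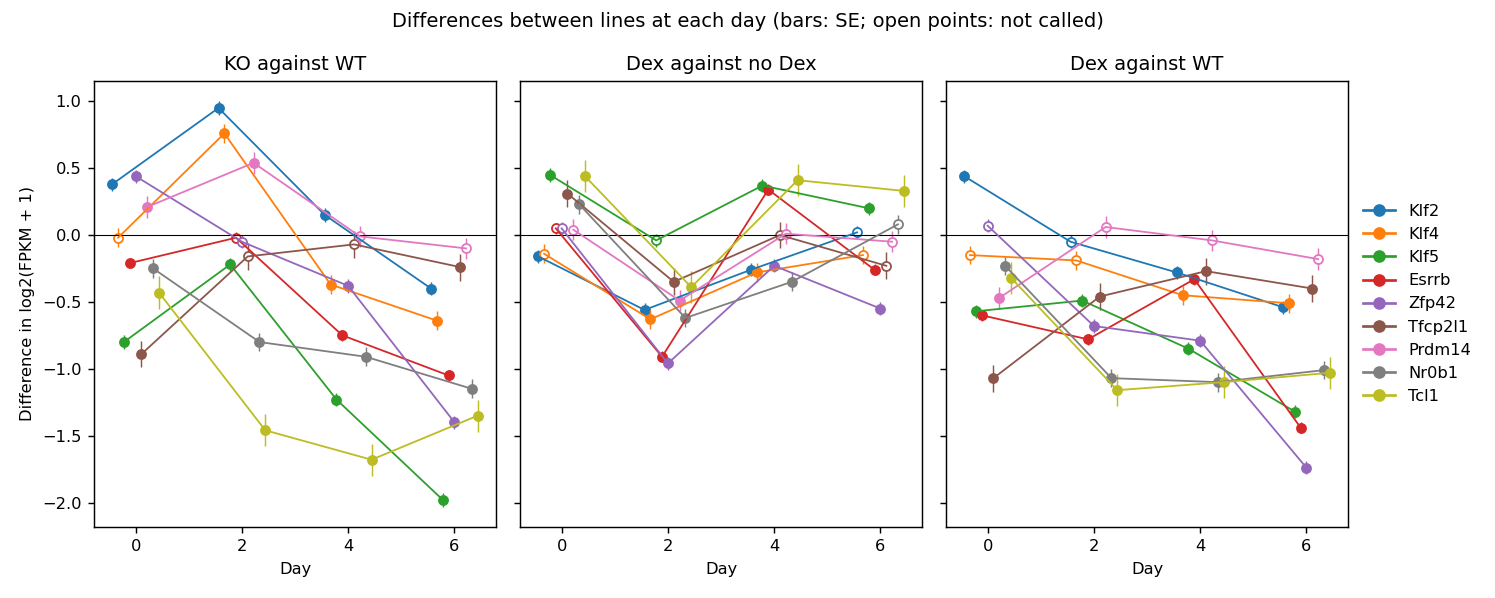
Difference in log2(FPKM + 1) between lines at each day for the 9 genes, with bars for the SE and open points for differences that were not called. In KO against WT, Klf2, Klf4 and Prdm14 lie above 0 at day 2 and all points lie below 0 at day 6. With Dex against without it, each gene has its lowest point at day 2.

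Klf2 and Zfp42 both lie on chromosome 8, where the median over 858 tested genes was shifted in KO and in Dex against WT from day 2 on. Whether the shift covered all or part of the chromosome was not tested. The median log2 difference of its genes in KO against WT over days 0, 2, 4 and 6 was 0.01, 0.24, 0.34 and 0.35, while at days 2, 4 and 6 no other chromosome had a median above 0.14. In Dex against WT the medians of chromosome 8 were 0.01, 0.10, 0.31 and 0.35, and in Dex against no Dex they were 0.03, -0.10, -0.02 and 0.04. Less the chromosome's median, Klf2 in KO against WT was 0.37, 0.70, -0.19 and -0.75 over the same days, so that its direction at day 4 turned. Zfp42 was 0.43, -0.29, -0.72 and -1.75 on the same basis. Within lines, the median change of chromosome 8 from day 0 to day 6 was -0.18 in WT, against 0.11 over the other chromosomes. In KO it was 0.14 against 0.09, in no Dex 0.13 against 0.17 and in Dex 0.16 against 0.13. Of the 4 lines, WT was thus where chromosome 8 stood farthest below the others over time. The part of these shifts in the line differences of the 2 genes, or in their falls in WT, was not tested.

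**Figure D4:**
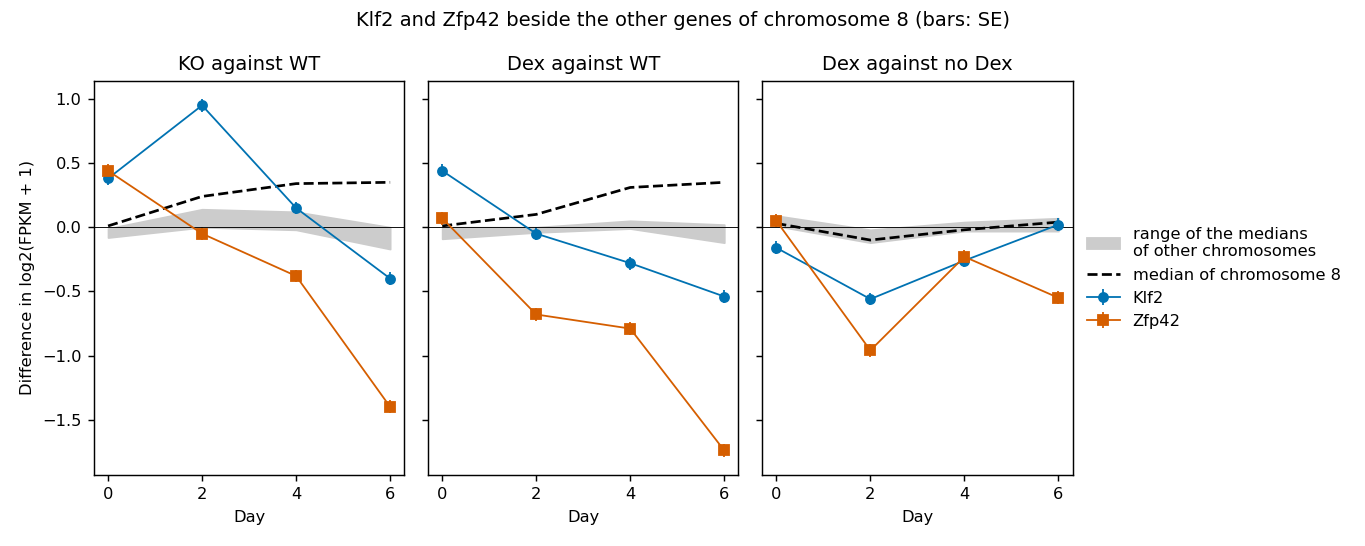
Klf2 and Zfp42 (points, bars for the SE) beside the median of all tested genes on chromosome 8 (dashed) and the range of the medians of the other chromosomes (grey), as differences in log2(FPKM + 1) by day. The dashed line rises to 0.35 in KO and in Dex against WT and stays between -0.10 and 0.04 in Dex against no Dex, while Zfp42 goes to -1.40 and -1.74 at day 6 against WT.

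The fusion line without Dex was then set beside the KO line it was made from. At day 0, 8 of 9 genes were called, 1 higher and 7 lower where 49.1% of tested genes were called (19.3% higher, 29.8% lower). At day 2 there were 7, 4 higher and 3 lower, where 37.0% of tested genes were called (14.8% higher, 22.2% lower). At day 4 there were 3, 1 higher and 2 lower, where 26.7% were called (9.66% higher, 17.0% lower), and at day 6 there were 5, 3 higher and 2 lower, where 49.0% were called (21.1% higher, 27.9% lower). Prdm14 at day 0 was 8.37 and 7.95 FPKM in KO and 4.35 and 4.77 FPKM in no Dex (log2 difference -0.72, SE 0.08, limma adjusted p = 8.08e-07), and Tfcp2l1 was 8.87 and 9.41 FPKM in KO and 6.16 and 6.22 FPKM in no Dex (-0.50, SE 0.10). Tcl1 at day 2 was 4.28 and 3.80 FPKM in KO and 7.58 and 6.69 FPKM in no Dex (0.69, SE 0.12, limma adjusted p = 0.000224). Klf2 at day 2 was 112 and 109.7 FPKM in KO and 79.0 and 83.3 FPKM in no Dex (-0.44, SE 0.05, limma adjusted p = 3.65e-06). Zfp42 at day 2 was 102.3 and 97.8 FPKM in KO and 126.7 and 126.8 FPKM in no Dex (0.34, SE 0.05), and Klf5 was 16.1 and 16.2 FPKM in KO and 13.8 and 13.4 FPKM in no Dex (-0.23, SE 0.05). The 2 groups did not overlap in any of these 4 genes. At day 6 Klf5 had 0.73 and 0.82 FPKM in KO and 1.3 and 1.59 FPKM in no Dex (0.46, SE 0.05, limma adjusted p = 5.37e-07). The calls that held under every alternative and with each library left out were, for day 0, those of 5 genes (Klf2 higher, Esrrb, Zfp42, Tfcp2l1 and Prdm14 lower), for day 2 those of 5 (Zfp42, Nr0b1 and Tcl1 higher, Klf2 and Klf5 lower) and for day 6 that of Klf5. No call of day 4 held throughout. The calls that leaving out 1 library ended were Nr0b1 (-0.17 to -0.19, first library of KO or no Dex) and Tcl1 (-0.27 to -0.35, second KO or either no Dex library) at day 0, Esrrb (0.11 to 0.12, second KO or first no Dex library) at day 2, and Klf2, Klf4 and Zfp42 at day 4. At day 6 they were Klf2 (-0.08 to -0.09) and Zfp42 (0.14) without the second KO or first no Dex library, Klf4 (0.21) without the second KO library and Esrrb (-0.08) without the first no Dex library. At day 4 the split was 1 higher and 0 lower under rescaling. These comparisons share the KO libraries with those of KO against WT, and each comparison's values are given on their own.

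Dex was compared with no Dex within the fusion line. The clearest difference was at day 2, where 8 of 9 genes were called, all lower with Dex (44.3% of tested genes called, 12.7% higher and 31.5% lower), with a median log2 difference of -0.56 against -0.08 over all tested genes. Zfp42 was 126.7 and 126.8 FPKM without Dex and 64.6 and 64.3 FPKM with it (log2 difference -0.96, SE 0.05, limma adjusted p = 1.09e-10). Esrrb was 25.9 and 25.4 FPKM without Dex and 13.3 and 13.1 FPKM with it (-0.91, SE 0.04, limma adjusted p = 1.89e-11). Nr0b1 was 15.7 and 14.9 FPKM without Dex and 9.73 and 9.51 FPKM with it (-0.62, SE 0.07, limma adjusted p = 8.00e-07). For Zfp42 and Esrrb the Dex mean was 0.508 and 0.516 times that of no Dex, with each Dex library below each no Dex library. Klf4 had 3.60 and 3.58 FPKM without Dex and 2.21 and 1.75 FPKM with it (-0.63, SE 0.07), and Klf2 had 79.0 and 83.3 FPKM without and 55.75 and 54.0 FPKM with it (-0.56, SE 0.05). Prdm14 went from 1.04 and 1.05 FPKM to 0.36 and 0.56 FPKM (-0.49, SE 0.08). Klf5 was the exception, with 13.8 and 13.4 FPKM without Dex and 12.7 and 13.8 FPKM with it (-0.04, SE 0.05, limma adjusted p = 0.630), and these libraries overlapped. The 6 calls of Klf2, Klf4, Esrrb, Zfp42, Prdm14 and Nr0b1 held under every alternative and with each library left out. Tfcp2l1 (-0.35, limma adjusted p = 0.00685) lost its call without the first Dex library (-0.25). Tcl1 (-0.39, limma adjusted p = 0.0159) lost its call without the first no Dex library (-0.31) or without the first (-0.38) or second (-0.40) Dex library, and with a pseudocount of 0.1 (-0.44, limma adjusted p = 0.237).

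Before and after day 2 the Dex difference had no common direction. At day 0, 5 of 9 genes were called, 4 higher and 1 lower with Dex (43.4% of tested genes called, 27.3% higher and 16.1% lower), or 3 higher and 2 lower under rescaling. Klf5 was 49.1 and 49.7 FPKM without Dex and 68.4 and 67.3 FPKM with it (log2 difference 0.45, SE 0.05, limma adjusted p = 1.17e-06), and it was the call at day 0 that held under every alternative and with each library left out. At day 4, 7 were called, 3 higher and 4 lower (40.2% of tested genes, 18.3% higher and 21.9% lower). Klf5 had 2.99 and 2.78 FPKM without Dex and 4.02 and 4.04 FPKM with it (0.37, SE 0.05), and Esrrb had 3.48 and 3.81 FPKM without and 4.75 and 4.98 FPKM with it (0.34, SE 0.04), whereas Nr0b1 had 1.60 and 1.40 FPKM without and 0.91 and 1.02 FPKM with it (-0.35, SE 0.07). Esrrb thus stood lower with Dex at day 2 and higher at day 4, each without overlap. At day 6, 4 were called, 2 higher and 2 lower (42.7% of tested genes, 23.8% higher and 19.0% lower), of which Zfp42, with 7.73 and 6.97 FPKM without Dex and 4.72 and 4.71 FPKM with it (-0.55, SE 0.05, limma adjusted p = 1.20e-07), was the call that held under every alternative and with each library left out. Leaving out 1 library ended the calls of Klf2 (-0.15 to -0.17, any library), Tfcp2l1 (0.30 to 0.32, all but the first Dex library) and Nr0b1 (0.19 to 0.21, first no Dex or second Dex library) at day 0. At day 4 it ended those of Klf4 (-0.24, first Dex library), Zfp42 (-0.14, first no Dex library) and Tcl1 (0.34 to 0.35, first no Dex or second Dex library), and at day 6 those of Klf5 (0.11 to 0.14, first no Dex or second Dex library) and Tcl1 (0.13 to 0.16, second no Dex or first Dex library). Esrrb at day 6 was lower with Dex (-0.26, limma adjusted p = 9.13e-05), a call lost in a fit of the 2 groups alone (limma adjusted p = 0.0810).

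In the test of the change from day 0, all 9 genes fell further by day 2 with Dex than without (45.0% of tested genes called, 32.4% lower). The difference in change ran from -0.40 (Klf2, SE 0.08) to -1.02 (Zfp42, SE 0.08) with a median of -0.66, against -0.12 over all tested genes. Under rescaling the median was -0.54 against 0, with Klf2 at -0.20 and Klf5 at -0.30. Esrrb had a difference of -0.95 (SE 0.06, limma adjusted p = 6.33e-10) and Nr0b1 one of -0.85 (SE 0.10, limma adjusted p = 9.81e-07). Klf5, whose level at day 2 did not differ between the groups by the test, had -0.49 (SE 0.07, limma adjusted p = 2.60e-05) and had started higher with Dex. Of these calls 8 held under every alternative and with each library left out, and Tcl1 (-0.83) had an adjusted p of 0.0868 with a pseudocount of 0.1. At day 4, 3 genes were called (1 higher, 2 lower, 34.8% of tested genes, 1 higher and 1 lower under rescaling) and at day 6 there were 4 (all lower, 48.7%, 1 higher and 4 lower under rescaling).

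Dex was finally set beside WT, which shares the Dex libraries with the comparison above and the WT libraries with that of KO. At day 0, 7 of 9 genes were called, 1 higher and 6 lower (49.8% of tested genes called, 19.0% higher and 30.8% lower), or 2 higher and 4 lower under rescaling. At day 2 there were 6, all lower, where 29.4% of tested genes were called (12.2% higher, 17.2% lower). At day 4 there were 8, all lower, where 44.7% were called (25.7% higher, 19.1% lower), and at day 6 there were 8, all lower, where 61.4% were called (29.2% higher, 32.2% lower). The median log2 difference at day 6 was -1.01 in Dex against WT beside -1.05 in KO against WT. Zfp42 at day 6 had 18.1 FPKM in each WT library and 4.72 and 4.71 FPKM in Dex (-1.74, SE 0.05, limma adjusted p = 1.77e-15). Esrrb had 6.08 and 5.66 FPKM in WT and 1.46 and 1.59 FPKM in Dex (-1.44, SE 0.04, limma adjusted p = 1.33e-15), and Klf5 had 5.88 and 6.15 FPKM in WT and 1.69 and 1.92 FPKM in Dex (-1.32, SE 0.05, limma adjusted p = 7.09e-14). The levels of these 3 factors with Dex were all below those of WT at day 6, without overlap. At day 2, where Klf2 and Klf4 were higher in KO than in WT, their levels with Dex were 55.75 and 54.0 FPKM for Klf2 (log2 difference from WT -0.05, SE 0.05, limma adjusted p = 0.520) and 2.21 and 1.75 FPKM for Klf4 (-0.19, SE 0.07, limma adjusted p = 0.0707). Prdm14 was likewise 0.36 and 0.56 FPKM with Dex at day 2 (0.06, SE 0.08, limma adjusted p = 0.649), while Nr0b1 (-1.07, SE 0.07) and Tcl1 (-1.16, SE 0.12) were below WT. The calls held under every alternative and with each library left out for 8 genes at day 6, then 7 for day 4, 5 for day 2 and 4 for day 0 (Klf2 higher, Klf5, Esrrb and Tfcp2l1 lower). Tfcp2l1 at day 4 (-0.27) was lost without any 1 of the 4 libraries (-0.24 to -0.31), and at day 0 Nr0b1 (-0.23) was lost without the second WT or the first Dex library (-0.19 each) and Tcl1 (-0.32) without any 1 of the 4 (-0.29 to -0.36).

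Genes of the same pathways were counted for comparison, and the counts stand beside shares over all tested genes of 58.9% called in KO against WT at day 2 (37.5% higher, 21.3% lower), 65.1% for day 6 of the same pair, and 44.3% for the Dex effect of day 2. Of 30 other pluripotency genes, 7 were higher and 16 lower in KO against WT at day 2, with a median log2 difference of -0.14 against 0.09 over all tested genes. Nanog (1.04, limma adjusted p = 3.54e-13), Dppa3 (1.47, limma adjusted p = 6.81e-10) and Nodal (0.78, limma adjusted p = 1.25e-09) were among the higher ones, and Gbx2 (-0.80, limma adjusted p = 1.16e-08) among the lower ones. At day 6, 4 were higher and 21 lower, with the largest falls in Utf1 (-2.86), Dppa5a (-2.21), Tdgf1 (-1.96) and Fbxo15 (-1.64). In Dex against no Dex at day 2, 2 were higher and 22 lower (median -0.36 against -0.08), among them Nodal (-1.07), Nanog (-0.88), Tbx3 (-0.83) and Dppa3 (-0.76). Nanog, the homeodomain factor of the same network, had 15.3 and 16.1 FPKM in WT at day 2, 32.7 and 34.1 FPKM in KO, 31.65 and 31.75 FPKM in no Dex, and 16.7 and 16.9 FPKM in Dex. Pou5f1 (Oct4) and Sox2 kept high levels at day 2 in all lines, at 765 to 886 FPKM and 125.5 to 156 FPKM.

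Of 14 genes of the LIF and STAT3 pathway, 8 were higher and 4 lower in KO against WT at day 2 (median 0.33 against 0.09 over all tested genes). Socs3, a feedback inhibitor that STAT3 induces, was 2.56 and 1.94 FPKM in WT and 13.9 and 14.6 FPKM in KO at day 2 (log2 difference 2.24, limma adjusted p = 2.26e-14). Lif, the ligand, was higher by 1.05 and Junb by 1.03, and the receptor Lifr was lower (-0.81, limma adjusted p = 0.0282). At day 0 none of the 14 was higher and 9 were lower in KO, where 48.2% of tested genes were called (18.4% higher, 29.8% lower). In Dex against no Dex at day 2, 2 were higher and 6 lower, and Socs3 had 7.47 and 7.62 FPKM without Dex and 6.97 and 7.42 FPKM with it. Of 22 genes tied to the exit from the naive state, 6 were higher and 8 lower in KO at day 2, a share near that of all tested genes, led by Fgfr2 (-0.45) and Mbd3 (0.42), and 4 were higher and 15 lower with Dex at day 2, led by Rbpj (-0.61). Of 14 tested genes of the formative and primed state, which follows the naive one, 13 rose from day 0 to day 2 in WT (median log2 change 2.83), 12 in KO (2.67), 13 in no Dex (2.77) and 12 in Dex (2.68). Over all tested genes the shares called higher in that step were 27.4% in WT, 37.2% in KO, 41.4% in no Dex and 29.2% in Dex. In KO against WT at day 2, 9 of the 14 formative and primed genes were higher and 3 lower. Dnmt3b (-1.06) and Dnmt3a (-0.85) were lower and Fgf5 (0.75) was higher. Of 12 other tested KLF genes, 6 were higher and 2 lower in KO at day 2, also near the share of all tested genes, led by Klf13 (0.94), Klf6 (-0.79), Klf3 (0.56) and Klf11 (0.50).

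Markers of other cell types moved between the same groups, and their part in the differences of the 9 genes was not tested. In KO against WT, the shares of all tested genes called over the 4 days were 48.2%, 58.9%, 60.5% and 65.1%, and marker counts near these shares are no result about the markers. All 8 primitive or extraembryonic endoderm markers were lower in KO than in WT at each of the 4 days, and their summed level over all days was 43.7 to 112.5 FPKM in WT, 6.84 to 17.6 FPKM in KO, 8.79 to 14.3 FPKM in no Dex and 15.1 to 19.1 FPKM in Dex. With Dex at day 2, 7 of the 8 were higher than without, where 12.7% of tested genes were higher and 31.5% lower. At that day 5 of the 8 markers were below 1 FPKM in no Dex and 4 were in Dex. Of 7 neural progenitor markers, 5 were higher in KO at day 2 (sum 48.1 to 49.3 FPKM in WT, 80.2 to 82.1 FPKM in KO) and 5 higher and 1 lower at day 6 (419 to 429 FPKM in WT, 722 to 724 FPKM in KO). All 6 tested markers of 2-cell-like cells were higher in KO at day 0, with sums of 55.04 to 55.7 FPKM in WT, 91.0 to 94.7 FPKM in KO, 132.0 to 132.4 FPKM in no Dex and 115.3 to 120.4 FPKM in Dex, and Tcstv1 was listed at 0 in the Dex libraries. Germ cells also express Prdm14, and the sums of 7 germ cell markers fell from 70.0 to 83.6 FPKM at day 0 to 11.7 to 26.0 FPKM at day 6. Of these 7, 4 were higher and 1 lower in KO at day 2 (24.0 FPKM in WT, 29.2 to 31.5 FPKM in KO). Endothelium, which uses Klf2 and Klf4, had marker sums of 0.25 to 2.52 FPKM except at day 6 in WT (12.3 to 12.6 FPKM). That sum was nearly all Kdr (11.7 and 11.4 FPKM), the other 4 markers were each below 1 FPKM, and Emcn was listed at 0 in WT at all days. Of 6 tested trophoblast markers, 4 were higher in KO at day 2 (15.7 to 18.6 FPKM in WT, 27.6 to 28.2 FPKM in KO). Of 5 tested markers of surface ectoderm and epithelium, 2 were higher and 3 lower (416 to 422 FPKM in WT, 405 to 409 FPKM in KO). Krt5, Krt14 and Trp63 were below 1 FPKM in both lines at that day, and Tfap2a was in WT. The WT sum was thus nearly all from the epithelial markers Krt8, Krt18, Epcam and Cdh1. Feeder fibroblast markers summed to 3.77 to 17.9 FPKM and mesendoderm markers to 2.63 to 15.1 FPKM. Of the 6 feeder markers, 4 or 5 were below 1 FPKM in each group over days 0, 2 and 4, Thy1 not among them. Of the 7 mesendoderm markers, 4 to 6 were below 1 FPKM in each group.

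Across the 16 group means the members followed one another closely. Pearson r of log2(FPKM + 1) between pairs ran from 0.817 (Klf4 and Nr0b1) to 0.992 (Zfp42 and Nr0b1), a description over 16 points that share lines and days. Among 11566 candidate genes, those most like the mean pattern of the 9 were Pecam1 (r = 0.998), Arl14epl (0.994), AU018091 (0.993), Khdc3 (0.992) and Mreg (0.992). For single members, the closest genes were Zfp296 for Klf2 (r = 0.996), Stra8 for Klf4 (0.992), Hspb1 for Klf5 (0.989), Pecam1 for Esrrb (0.994), Rpl10l for Zfp42 (0.992), Kank4 for Tfcp2l1 (0.992), Gm11496 for Prdm14 (0.987), Spp1 for Nr0b1 (0.995) and Phf11d for Tcl1 (0.995). By Spearman's rho these 9 genes ranked lower among the candidates, from 13 (Phf11d) to 617 (Gm11496). With ranks in place of values, Arl14epl and Pecam1 stayed among the 5 genes nearest the mean pattern, at ranks 2 and 4.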

How the data were processed

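Gene levels were taken from the authors' deposited table of FPKM, 1 column per library, for 32 libraries of polyadenylated RNA sequenced from both ends. STAR, Cuffdiff and the mm10 build are named in the submitters' processing notes, without versions. The annotation, counting and scaling settings are not given in the sources used here. FPKM values are divided by length and a library total, so a count test was not used as the main test. Library depth came from the spacing of small FPKM values over 4183 single-transcript genes, where 81.6 to 92.3% of the low values used in a library lay within 0.2 of a whole fragment (40.0% by chance). Per the labels' protocols, duplicates went through separate library preparation and sequencing rounds.

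Genes with 1 FPKM or more in at least 2 libraries (16276) were tested with limma 3.58.1 (R 4.3.3) on log2(FPKM + 1), with 16 group means, 16 residual degrees of freedom, a mean-variance trend and Benjamini-Hochberg adjustment over all tested genes, in 38 comparisons. With 200 genes changed in simulated data for KO against WT at day 6 (16276 genes), the fit recovered 162 at a log2 change of 0.5, 194 at 1 and 198 at 2, with 14, 10 and 16 false calls (8, 4.9 and 7.5% of calls). Alternatives were a pseudocount of 0.1, no filter (34331 genes), a mean of at least 5 FPKM (9412 genes, without Prdm14 and Tfcp2l1), rescaling by median ratios, a fit of the compared groups alone, a replicate block, no trend and leaving out each library. A call is said to hold where it passed in every alternative in which its gene was tested.

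The members, gene lists and tests were chosen with earlier results of these data known. All 9 members are named; list genes named are the 4 with the largest absolute change among those called in a comparison, and Pou5f1, Nanog, Sox2, Socs3 and Mettl3. Socs3 was given by library after its values were seen. Cell type lists covered neural progenitors, extraembryonic endoderm, trophoblast, germ cells, 2-cell-like cells, surface ectoderm with epithelium, mesendoderm, feeder fibroblasts and endothelium. Protein sequences were not used here. Gene coordinates are those of GENCODE M21 on GRCm38.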

Additional observations from a re-analysis of the deposited data

Results flagged for a closer look

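The change from day 0 differed between KO and WT by the test of that difference in 9 of the 9 genes at day 2, in 8 by day 4 and in 9 by day 6. For that pair the shares of all tested genes called were 48.9%, 57.4% and 56.9%. Of these member calls, 6, 6 and 7 held throughout. Between Dex and no Dex the change differed in 9 genes at day 2, then in 3 by day 4 and in 4 by day 6. There the shares of all tested genes were 45.0%, 34.8% and 48.7%, and the later 2 counts were near them. Of these calls, 8, 2 and 3 held throughout. Each gene named next also had calls in opposite directions at day 0 and at the later day. In KO against WT these were Klf2 at day 6 (-0.77 on the log2 scale) and Zfp42 at days 4 (-0.82) and 6 (-1.84), 2 genes of chromosome 8, whose median difference at those days was 0.34 and 0.35. In Dex against no Dex they were Tfcp2l1 (-0.66), Nr0b1 (-0.85) and Tcl1 (-0.83) at day 2 and Nr0b1 at day 4 (-0.58). The day 0 calls of these 3 genes, and the day 2 calls of Tfcp2l1 and Tcl1, were each lost under at least 1 alternative or left-out library.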

How the results depend on the processing

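Of the values of called members recomputed, 1180 kept direction and call and 92 lost the call when a library was left out. Calls that ended number 14 with rescaling, 12 with no filter, 30 with the compared groups alone, 18 with a pseudocount of 0.1 and 2 with the replicate block. None ended without the trend. The number of members called in KO against WT at day 0 (8) was 5 with a pseudocount of 0.1, in no Dex against KO at day 0 (8) it was 5 with rescaling, and in Dex against WT at day 0 (7) it was 4 with a pseudocount of 0.1. In no Dex against KO at day 4 (3) it was 1 with no filter, 1 with rescaling, 0 with the compared groups alone and 0 to 2 with a library left out. At day 6 (5) it was 1 with the compared groups alone and 2 to 5 with a library left out. For Dex set against no Dex, the day 0 number (5) was 2 with a pseudocount of 0.1 and 2 to 4 with a library left out, and the day 6 number (4) was 1 with the compared groups alone. The cause was not tested. Klf2 in KO against WT at day 4 turned from 0.15 to -0.19 less the median of its chromosome, an alternative under which 34 called values moved by no more than their SE and 23 by more, with no turn of direction. Deviations of libraries with the same number correlated at -0.09 to 0.13 (120 group pairs compared), and replicate numbers were therefore not taken as pairs. With the replicate block, Klf4 lost 2 calls, that of no Dex against KO at day 4 (0.21) and that of day 4 against day 2 within Dex (-0.18), and no count moved by over 1.5 times. Ranks in place of values kept 2 of the 5 genes nearest the mean pattern. The lowest values of Tcl1, Prdm14 and Nr0b1 rested on an estimated 7, 10 and 16 fragments.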
